A study of Mus musculus with 6 samples.

Results

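The receptors described here are G protein-coupled receptors for lysophosphatidic acid (LPA) and sphingosine 1-phosphate (S1P), several of which can couple to the G12 and G13 proteins. They were chosen by name: Lpar1, Lpar2, Lpar3, Lpar4 and Lpar6 for LPA, and S1pr1, S1pr2, S1pr3, S1pr4 and S1pr5 for S1P, 10 genes in all. Of these, 9 had array rows annotated to a single gene symbol, out of 23152 such genes on the array, and they were read by 46 probe sets out of 269751 rows. Lpar6 could not be measured by this rule, since its 5 probe sets are annotated to Lpar6 and Rb1 together, the gene within which Lpar6 lies.

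RNA was measured in the soleus, a slow hindlimb muscle, of male mice aged 18 weeks after a 14 h overnight fast. The WT group was 3 mice with Gna13 alleles flanked by loxP sites (Gna13 flox/flox) and no Cre. The MKO group was 3 mice with the same floxed alleles and Ckmm-Cre, the Cre recombinase driven by the muscle creatine kinase promoter, so that deletion is aimed at muscle fibres while vessel, connective tissue and blood cells in the same sample keep their floxed alleles. Every mouse gave 1 array, and the labels call the mice biological replicates. The design addresses which transcripts differ when Gα13, the G protein subunit that Gna13 encodes, is deleted in muscle. No group carried Cre without floxed alleles.

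LPA and S1P are phospholipids with a single tail that act outside the cell. LPA is made mainly by the secreted enzyme autotaxin, and S1P by sphingosine kinases inside the cell, from which carriers export it. Their receptors share ligands but differ in coupling: Gα12 and Gα13 lead through exchange factors to RhoA and the actin cytoskeleton, while S1PR1 couples to Gi and is known in endothelium for holding the vessel barrier. S1PR2 and S1PR3 also couple to Gα12 and Gα13, S1PR4 is known from lymphocytes, and S1PR5 from natural killer cells and oligodendrocytes.

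All values are on the log2 scale, and differences are MKO minus WT. A gene's value is the mean of its probe sets on each array. Levels are not ranked between receptors, because probes differ in brightness for reasons other than RNA amount. A dim reference was taken from 1098 olfactory receptor genes, of which 95% had a mean level under 4.06. Above that reference stood 7 of the 9 receptors, against 13504 of all 23152 genes, while Lpar2 and Lpar3 did not. The same limit for single probe sets was 4.44, which 29 of the 46 receptor probe sets exceeded. In bulk tissue, fewer cells of a type and less RNA per cell cannot be told apart.

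The soleus arrays carried the muscle fibre markers strongly, with Ckm (muscle creatine kinase) at 9.77 ± 0.02 in WT and 9.83 ± 0.18 in MKO and Acta1 (skeletal actin) at 12.56 ± 0.05 and 12.54 ± 0.10 (SD, n = 3). Gna13 itself gave a mixed check of genotype. Of its 7 probe sets, 17257825 stood at 5.96 ± 0.41 in WT and 4.0 ± 0.50 in MKO (SD, n = 3), with no overlap. The probe sets 17257824, 17257828 and 17257829 had higher values in every MKO array than in any WT array, and the mean of all 7 differed by 0.04 (SE 0.13). The exons behind these probe sets are not named by the annotation used. Des, the desmin of muscle fibres, was named for its result, an unadjusted p under 0.05 (limma) without overlap. It differed by −0.23 (SE 0.06), with no call after adjustment. MKO replicate 1 stood apart on the first principal component, where it scored 33.6 and the rest −19.7 to 14.4, and MKO replicate 2 on the second, where it scored 31.4 and the rest −12.8 to 1.09.

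None of the 9 receptors passed the threshold of an adjusted p under 0.05 (limma, Benjamini-Hochberg over 23152 genes), and the background was 0% of all genes called. The adjusted p was 0.9997 for each receptor. In 7 of 9 receptors the MKO mean was below the WT mean, against 53.4% of all genes, and in 2 above, against 46.6%, with a median difference of −0.12 among the receptors and −0.01 among all genes. After quantile normalization 6 of 9 were lower, S1pr5 having changed sign, with a median of −0.09. Without MKO replicate 1 the median was −0.23, without MKO replicate 2 it was 0.01 and without MKO replicate 3 it was −0.02. The size of that median, and without MKO replicate 2 its sign, rested on single mice. At an unadjusted p under 0.05 stood 1 receptor with MKO higher and 1 with MKO lower, against 1.92% and 2.41% of all genes, or 4.33% in either direction. They were S1pr4 and S1pr3, and neither passed without MKO replicate 1, without WT replicate 2 or with the median of probe sets. S1pr3 also did not pass without WT replicate 1, nor S1pr4 without MKO replicate 3, with array weights or with bright probe sets alone. The 2 probe sets of S1pr4 both pass the filter on dim probe sets, so their median and the filter leave its values unchanged. Only the SE from the fit rose there, from 0.18 to 0.23 with the median and 0.25 with the filter. Lpar4 passed without MKO replicate 3 and in no other alternative.

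**Figure D1:**
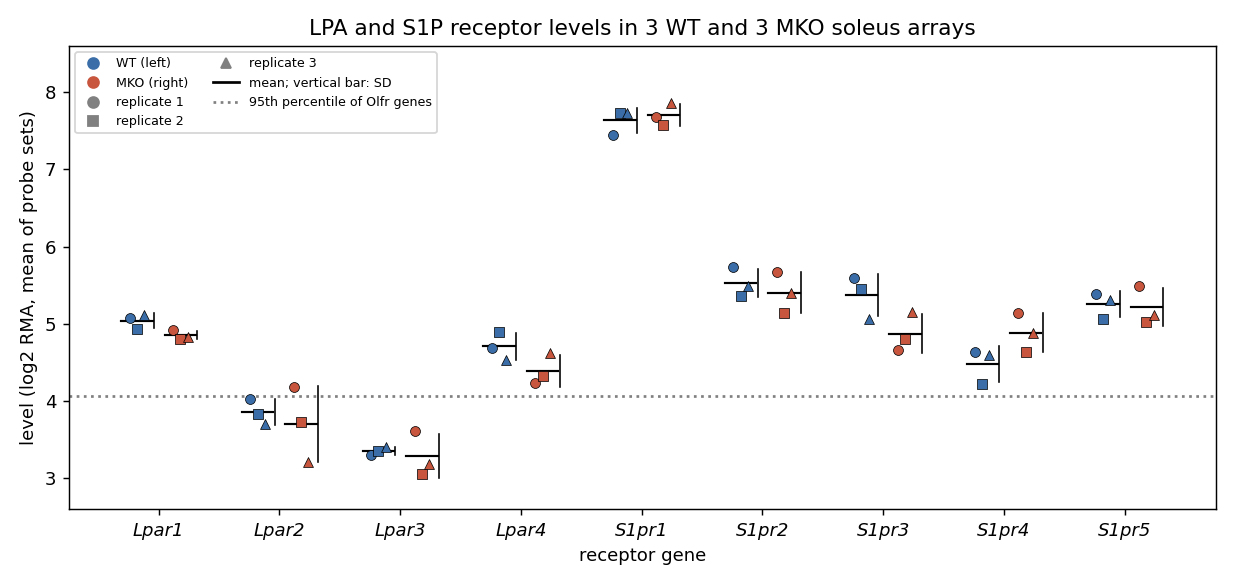
Level of each of the 9 measured receptors (log2 RMA, mean of its probe sets) on the 3 WT arrays (blue, left) and the 3 MKO arrays (red, right); marker shapes give replicate numbers, horizontal lines means, vertical bars the SD, and the dotted line the 95th percentile of olfactory receptor genes at 4.06. The MKO arrays lie wholly below the WT arrays for Lpar1 and wholly above them for S1pr4, while the means of Lpar2 and Lpar3 lie under the dotted line.

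Among the S1P receptors, S1pr1 had nearly equal levels in both genotypes. Its WT arrays read 7.45, 7.73 and 7.74 and its MKO arrays 7.68, 7.58 and 7.86. The groups overlapped, with WT replicate 1 lowest and MKO replicate 3 highest. The difference was 0.07 (SE 0.12) with a 95% interval of −0.18 to 0.32, which as a ratio of MKO to WT runs from 0.882 to 1.25. Larger changes than these lie outside the interval, though smaller ones do not. All 5 of its probe sets were above the dim reference, 4 of them slightly higher in MKO, and their differences ran from −0.01 to 0.15, the narrowest range among receptors with 3 or more probe sets. The sign of the gene difference turned without WT replicate 1 (−0.03) and without MKO replicate 3 (−0.0072).

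Endothelial markers are given beside S1pr1, which is known as an endothelial gene. All 10 had lower means in MKO, with a median difference of −0.15, and the count was 9 after quantile normalization or median centring. With an array left out it ran from 6 (without WT replicate 2) to 10, and the median was −0.09 without WT replicate 2 and −0.07 without MKO replicate 1. Their mean level ran from 6.83 to 7.17 in WT and from 6.63 to 6.95 in MKO, so the groups overlapped. Pecam1, an adhesion molecule of endothelium, differed by −0.07 (SE 0.13) and Cdh5, its cadherin, by −0.10 (SE 0.12). Cldn5, a tight junction protein, differed by −0.73 (SE 0.15), and it was named for that result. None of the 10 passed the adjusted threshold, and the part of cell content in the receptor values was not tested.

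S1pr3, a receptor of smooth muscle and endothelium that couples to Gq, Gi and Gα12/13, had the largest difference of the 9. It read 5.59, 5.45 and 5.07 in WT and 4.66, 4.81 and 5.15 in MKO. MKO replicate 3 lay above WT replicate 3, so the groups overlapped by that pair, and MKO replicate 1 was lowest. The WT mean was 5.37 ± 0.27 and the MKO mean 4.87 ± 0.25 (SD, n = 3). The difference was −0.50 (SE 0.18, limma adjusted p = 0.9997), or 1.41-fold lower. Its 95% interval, not adjusted for the number of genes, was −0.89 to −0.11. Of all genes, 331 had a smaller p than S1pr3.

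The 4 probe sets of S1pr3 had mean levels over all arrays above the dim reference, but 17287327 and 17287329 passed it through WT (4.94 and 5.10) and lay under it in MKO (4.26 and 4.16). Probe set 17287328 read 6.12, 6.62 and 6.32 in WT against 5.84, 5.997 and 5.86 in MKO, without overlap, and differed by −0.45 (SE 0.24). Probe sets 17287329 and 17287327 differed by −0.94 (SE 0.48) and −0.69 (SE 0.45) with overlapping arrays, and 17287326 by 0.09 (SE 0.31). With the median in place of the mean of the probe sets, the gene differed by −0.37. The difference stayed negative in all 16 alternatives, between −0.65 and −0.37, and was −0.39 without MKO replicate 1. Some of these (the variance trend, robust moderation, the replicate block and the filter on dim genes) cannot change a difference. Nor could the filter on dim probe sets here, since all 4 pass it. Smooth muscle and pericyte markers, which mark cells known to carry S1PR3, were lower for 7 of 10 genes (5 of 10 after quantile normalization or median centring) with a median of −0.03 that was −0.11 without MKO replicate 2, and their mean level overlapped between WT (6.80 to 6.95) and MKO (6.74 to 6.94). Acta2, smooth muscle actin, differed by −0.02 (SE 0.11), and Myh11, the smooth muscle myosin, by −0.05 (SE 0.12).

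S1pr4 had the opposite sign and was the receptor whose MKO arrays all exceeded its WT arrays. It read 4.63, 4.22 and 4.60 in WT and 5.14, 4.64 and 4.88 in MKO. The gap between the groups was small, since MKO replicate 2 at 4.64 lay next to WT replicate 1 at 4.63. The difference was 0.41 (SE 0.18, limma adjusted p = 0.9997), or 1.33-fold higher, with a 95% interval of 0.02 to 0.79. Its 2 probe sets, 17243380 and 17243381, differed by 0.54 (SE 0.34) and 0.28 (SE 0.37), and only the former had no overlap. The alternatives gave 0.27 to 0.53, with 0.28 without MKO replicate 1 and 0.27 without WT replicate 2. Among all genes, 4.26% had MKO arrays wholly above the WT arrays and 4.99% wholly below, so 1 of 9 in each direction among the receptors is 1 gene each against a background of that share, 9.25% in either direction.

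Lymphocyte markers, listed because S1PR4 is known from lymphocytes, were higher for 8 of 9 genes with a median of 0.12. Without WT replicate 2 this did not hold, 4 of 9 being higher with a median of −0.0002, and without MKO replicate 1 the median was 0.02. Their mean level ran from 3.55 to 3.68 in WT and from 3.69 to 3.82 in MKO, apart by little, and 1 of the 9 had a mean above the dim reference. Ptprc, the common leukocyte antigen CD45, differed by −0.14 (SE 0.21), and Cd3e and Cd3g, chains of the T cell receptor complex, by 0.09 (SE 0.18) and 0.41 (SE 0.18). All 3 had mean levels under 4.06, none passed the adjusted threshold, and Cd3g was named for its result. Myeloid markers were lower for 9 of 10 with a median of −0.12, but for 6 of 10 with a median of −0.05 without WT replicate 1, and the median was −0.21 without WT replicate 2. Cd68, a macrophage lysosomal protein, differed by −0.82 (SE 0.26) and Csf1r, the receptor macrophages need, by −0.18 (SE 0.15). The dim S100a8, a neutrophil protein named for its result, differed by 0.40 (SE 0.18) without overlap. Whether cell content takes part in the S1pr4 values was not tested.

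S1pr2 and S1pr5 had overlapping groups. S1pr2, the S1P receptor best known for coupling to Gα12 and Gα13, read 5.73, 5.37 and 5.49 in WT and 5.68, 5.14 and 5.40 in MKO. In both groups replicate 1 was high, the arrays overlapped, and the difference was −0.12 (SE 0.16) with a 95% interval of −0.48 to 0.23. S1pr5 read 5.38, 5.06 and 5.31 in WT and 5.49, 5.03 and 5.12 in MKO, a difference of −0.04 (SE 0.16) with an interval of −0.39 to 0.31. Its 5 probe sets spanned mean levels of 3.36 to 8.61, and the brightest, 17524676, differed by 0.07 (SE 0.19). S1pr2 was −0.33 with the median of probe sets and −0.28 with array weights, and turned to 0.01 without MKO replicate 2, while S1pr5 changed sign in 4 of 16 alternatives.

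**Figure D2:**
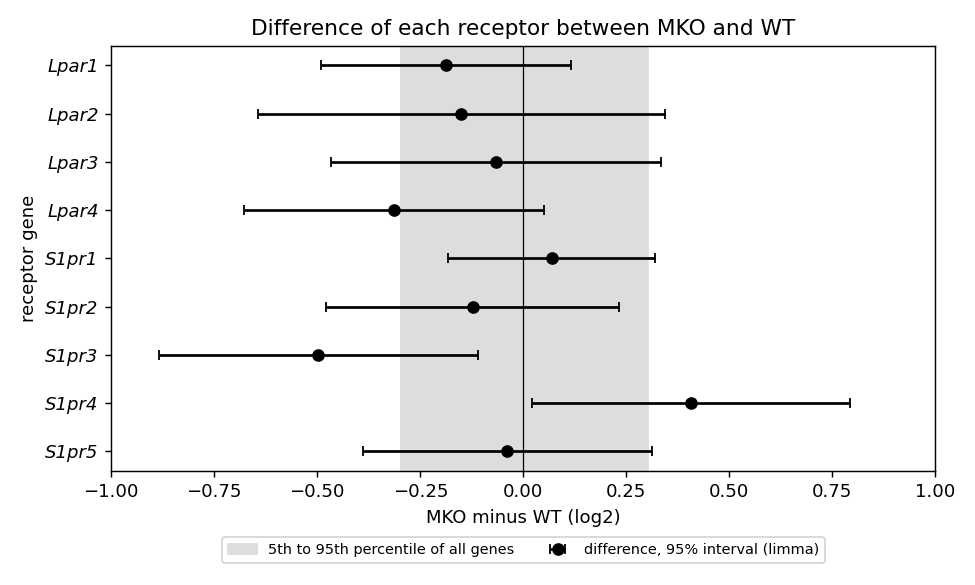
Difference between MKO and WT (log2) for each measured receptor with its 95% interval from limma; the grey band runs from the 5th to the 95th percentile of the differences of all 23152 genes, −0.30 to 0.30. S1pr3 (−0.50), Lpar4 (−0.31) and S1pr4 (0.41) lie outside the band. The intervals of S1pr3 and S1pr4 do not reach 0 in this fit. They do in some alternatives, among them those without MKO replicate 1 or WT replicate 2.

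All 4 measured LPA receptors had lower MKO than WT means, against 53.4% of all genes, with a median of −0.17. Of the 4, Lpar2 and Lpar3 had gene means under the dim reference. The count stayed at 4 under quantile normalization and median centring. It was 3 without MKO replicate 2 and 3 without MKO replicate 3, where the median was −0.10. None passed the adjusted threshold. Lpar1, the receptor for LPA that fibroblasts and Schwann cells carry most and that couples to Gi, Gq and Gα12/13, read 5.08, 4.93 and 5.12 in WT and 4.92, 4.81 and 4.84 in MKO. With all 13 probe sets averaged, dim ones included, the groups did not overlap, MKO being lower. MKO replicate 1 and WT replicate 2 were almost level. The difference was −0.19 (SE 0.14, limma adjusted p = 0.9997), or 1.14-fold lower, with a 95% interval of −0.49 to 0.12, and 4442 genes had a smaller p.

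Lpar1 had the most probe sets, 13, and they differed from one another. Above the dim reference, 6 of 8 were lower in MKO and 2 higher. Probe set 17425689 read 7.48, 7.25 and 7.24 in WT and 6.70, 6.83 and 7.12 in MKO, a difference of −0.44 (SE 0.20) without overlap, while the neighbouring number 17425688 differed by −0.06 (SE 0.20). Probe set 17425692 differed by −0.76 (SE 0.38), and 17425696 by 0.26 (SE 0.36). Fibroblast and fibro-adipogenic markers were lower for 9 of 10 genes, with a median of −0.21 (7 of 10 after quantile normalization, and 6 of 10 with a median of −0.08 without MKO replicate 1). Their mean level was 7.38 to 7.70 in WT and 7.08 to 7.49 in MKO, which overlap. Pdgfra, the growth factor receptor that marks these progenitors, differed by −0.34 (SE 0.14), and Col1a1, a fibrillar collagen chain, by −0.31 (SE 0.16). Schwann cell and oligodendrocyte markers, of which 5 of 8 were measured, were lower for 2 of 5 (0 of 5 after quantile normalization, median centring or removal of MKO replicate 1), with a median of 0.17. Mbp, the myelin basic protein, differed by 0.19 (SE 0.16). The part of either list in the Lpar1 values was not tested.

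Lpar4, which is related to the purinergic receptors rather than to the other LPA receptors and couples to Gα12/13 and Gs, read 4.69, 4.90 and 4.54 in WT and 4.23, 4.32 and 4.63 in MKO. MKO replicate 3 lay within the WT range and the other MKO arrays below it. The difference was −0.31 (SE 0.17) with a 95% interval of −0.68 to 0.05. Much of it came from 1 dim probe set, 17537114, which read 5.21, 4.26 and 4.34 in WT and 2.69, 3.90 and 4.03 in MKO. With the median of the probe sets the difference was −0.08, and with bright probe sets alone −0.19.

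Lpar2 and Lpar3 had gene means under the dim reference. Lpar2 read 4.03, 3.84 and 3.71 in WT and 4.19, 3.73 and 3.21 in MKO, a spread of 0.98 over the 6 arrays that was the widest of the 9 receptors, and the 95% interval of its difference ran from −0.64 to 0.34. Lpar3 read 3.30, 3.35 and 3.40 in WT and 3.61, 3.06 and 3.19 in MKO, with an interval of −0.47 to 0.33. Of the 6 Lpar2 probe sets, 17501750 (mean level 5.87) and 17501752 (4.64) exceeded the limit for probe sets and differed by −0.41 (SE 0.38) and −0.26 (SE 0.53). None of the 3 Lpar3 probe sets exceeded it, and signal of that size does not show whether the Lpar3 transcript is present.

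Single probe sets gave no call either. Of the 46, 0 passed an adjusted p under 0.05 over all 269751 rows (limma), where the background was 0% of rows, and 0 had an unadjusted p under 0.05, where the background was 5.0% (2.8% with MKO lower and 2.2% with MKO higher). In 25 of the 46 the MKO mean was lower, against 51.3% of all rows, and 17 of the 29 above the dim reference were lower. The arrays did not overlap in 6 of the 46. In 5 MKO lay below WT, against 5.05% of all rows, and in 1 above, against 4.81%, or 9.86% in either direction. Of the 5 with MKO below WT, 17425700 (mean level 2.39), 17501749 (3.35) and 17537114 (4.07) were under the dim reference. Probe sets 17425689 (7.10) and 17287328 (6.13) were above it, as was 17243380 (4.77), the 1 with MKO above WT. Probe sets of a gene share its RNA and are not independent of one another.

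**Figure D3:**
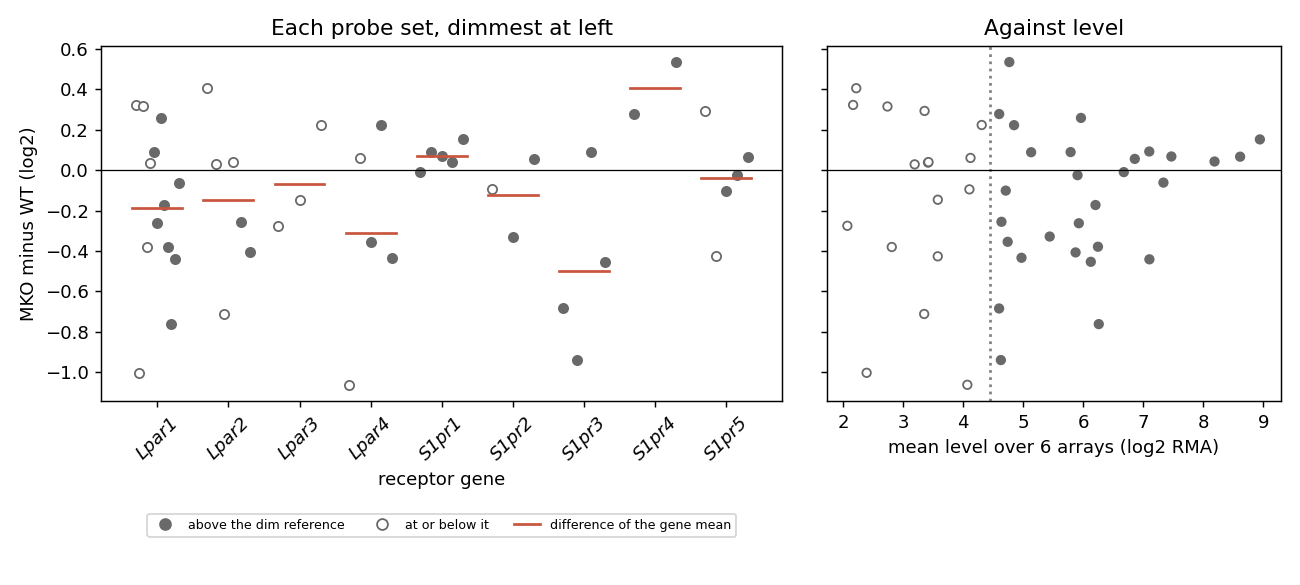
Difference between MKO and WT (log2) of the 46 receptor probe sets, at left by gene with the dimmest probe set of each gene leftmost and the difference of the gene mean as a red line, and at right against mean level (log2 RMA), where the dotted line marks 4.44. Filled points are above the dim reference; the 5 S1pr1 points lie between −0.01 and 0.15, and the widest spread belongs to Lpar1 and Lpar4.

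The upstream sequences of S1pr3 and S1pr4 are shown because these receptors had the largest differences and opposite signs. They are the 250 bases before the RefSeq start on build GRCm38.p6, S1pr3 at chr13:51408368-51408617 on the plus strand and S1pr4 at chr10:81500138-81500387 on the minus strand, 5′ to 3′ in the direction of the gene. Capitals mark E-boxes, CANNTG on both strands, the motif that MyoD family factors of muscle and many other factors read.
S1pr3: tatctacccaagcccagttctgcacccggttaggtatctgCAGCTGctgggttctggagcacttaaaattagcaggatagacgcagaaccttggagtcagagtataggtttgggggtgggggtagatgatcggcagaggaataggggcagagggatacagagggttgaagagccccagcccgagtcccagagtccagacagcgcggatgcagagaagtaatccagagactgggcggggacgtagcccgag
S1pr4: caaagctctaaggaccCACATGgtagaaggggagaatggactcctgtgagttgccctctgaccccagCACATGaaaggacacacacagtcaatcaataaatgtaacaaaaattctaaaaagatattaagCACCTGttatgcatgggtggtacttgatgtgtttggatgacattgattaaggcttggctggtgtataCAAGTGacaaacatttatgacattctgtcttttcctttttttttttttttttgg
The S1pr3 window held 1 E-box and 9 CpG pairs, with 56.4% G and C. The S1pr4 window held 4 E-boxes and 0 CpG pairs, with 38.8% G and C, where the median of 32851 RefSeq windows was 6 CpG pairs. An E-box was in 66.2% of those windows, so its presence is common. The GC box, GGGCGG on both strands, was found once in the S1pr3 window, not in the S1pr4 window, and in 32.7% of all windows. The CArG box, the motif of serum response factor, was found in none of the 11 windows listed for Lpar1, Lpar2, Lpar3, Lpar4, Lpar6, S1pr2, S1pr3, S1pr4 and S1pr5, and in 1.47% of all windows. No motif searched overlapped another in these windows, and a match of letters does not show a bound site.

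Enzymes that make and remove the ligands were taken next. Of 16 genes of LPA synthesis and breakdown, 0 passed the adjusted threshold in either direction, 8 were higher and 8 lower, with a median of 0.005, and 6 to 11 were lower with an array left out. Enpp2, which encodes autotaxin, read 7.39, 7.40 and 7.33 in WT and 7.66, 7.60 and 7.66 in MKO. Every MKO array was above every WT array, and the mice of each group lay close together. The difference was 0.27 (SE 0.10, limma adjusted p = 0.9997), or 1.2-fold higher, with a 95% interval of 0.06 to 0.47, and 22 of its 25 probe sets were higher in MKO. It lay between 0.24 and 0.30 in 15 alternatives, some of which cannot change it, and at 0.13 with the median of the probe sets.

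The lipid phosphatases that remove LPA and S1P outside the cell all had overlapping groups. Plpp1 (Ppap2a on the array) differed by −0.05 (SE 0.09), Plpp3 (Ppap2b) by −0.06 (SE 0.08) and the dim Plpp2 (Ppap2c) by −0.27 (SE 0.18). Pla1a, a phospholipase that can form LPA, differed by −0.01 (SE 0.25).

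In the list of S1P synthesis, transport and breakdown, 15 of 16 genes were lower in MKO, with a median of −0.10, and 0 passed the adjusted threshold in either direction. The count was 14 after quantile normalization or median centring, 11 without MKO replicate 1, and 10 without MKO replicate 2 or with the median of probe sets. Sgpl1, the lyase that degrades S1P irreversibly, read 6.06, 6.01 and 5.99 in WT and 5.80, 5.87 and 5.79 in MKO, without overlap, a difference of −0.20 (SE 0.12). Its smallest and largest values over the alternatives were −0.23 and −0.15. The kinases Sphk1 and Sphk2, which make S1P, differed by −0.07 (SE 0.16) and −0.0019 (SE 0.12). Spns2, the exporter of endothelium, differed by −0.18 (SE 0.16), and Mfsd2b, the exporter of red cells and platelets, by −0.21 (SE 0.18). Sgpp1, an S1P phosphatase, and Apom, the carrier of S1P in plasma, each differed by −0.06 (SE 0.15 and SE 0.16).

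Downstream of the receptors, 0 of 12 Gα genes passed, with 8 lower and a median of −0.05 (6 lower after quantile normalization). Gnai2, a Gi subunit to which several of these receptors couple, read 7.58, 7.72 and 7.52 in WT and 7.13, 7.24 and 7.49 in MKO, a difference of −0.32 (SE 0.12) without overlap that was −0.14 with the median of its 7 probe sets. Gna12, the closest relative of Gna13, differed by −0.09 (SE 0.13), and the Gq family members Gnaq and Gna11 by −0.12 (SE 0.16) and −0.0072 (SE 0.09). In the RhoA arm 0 of 11 passed, 8 being lower (5 after quantile normalization, median centring or removal of MKO replicate 1 or WT replicate 2, and 10 without MKO replicate 2) with a median of −0.02. Rhoa differed by −0.01 (SE 0.11).

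Exchange factors that lead to RhoA are given next, and they were not tested against one another. Arhgef1 read 6.02, 6.12 and 5.86 in WT and 5.70, 5.58 and 5.83 in MKO, a difference of −0.30 (SE 0.13) without overlap, which was −0.11 with the median of its 26 probe sets and −0.13 with bright ones alone. Arhgef12 differed by −0.10 (SE 0.10). Arhgef2, a microtubule-bound exchange factor, read 7.32, 7.33 and 7.32 in WT and 6.90, 7.10 and 6.88 in MKO, a difference of −0.36 (SE 0.11) with 23 of 24 probe sets lower. Its adjusted p was 0.9997 (limma), as for the others named here, and Arhgef2 was named for its result.

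Other receptors that can couple to Gα12/13 gave no call among 12 measured, with 7 lower (5 after quantile normalization, 6 to 9 with an array left out) and a median of −0.03. Agtr1a, the angiotensin receptor, read 5.61, 5.54 and 5.95 in WT and 5.48, 5.15 and 5.37 in MKO. Its difference was −0.37 (SE 0.15) without overlap, and it was named for that result. The thrombin receptor F2r differed by −0.03 (SE 0.10) and the thromboxane receptor Tbxa2r by 0.09 (SE 0.21). Of 14 receptor kinases, arrestins and RGS proteins, which switch such receptors and their G proteins off, 0 passed, with 6 lower, 8 higher and a median of 0.01. The balance turned to 10 lower without MKO replicate 3 and to 9 lower with the median of probe sets, where the list median was −0.14. Grk2 (Adrbk1 on the array), a kinase, differed by −0.0018 (SE 0.12) and Arrb2, an arrestin, by 0.02 (SE 0.15). Ednra and Lpar5 were not matched on the array. Among 7 other receptors for lysophospholipids or of their family, 0 passed and 2 stood above the dim reference, and P2ry10 differed by 0.20 (SE 0.18) at a level under it.

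**Figure D4:**
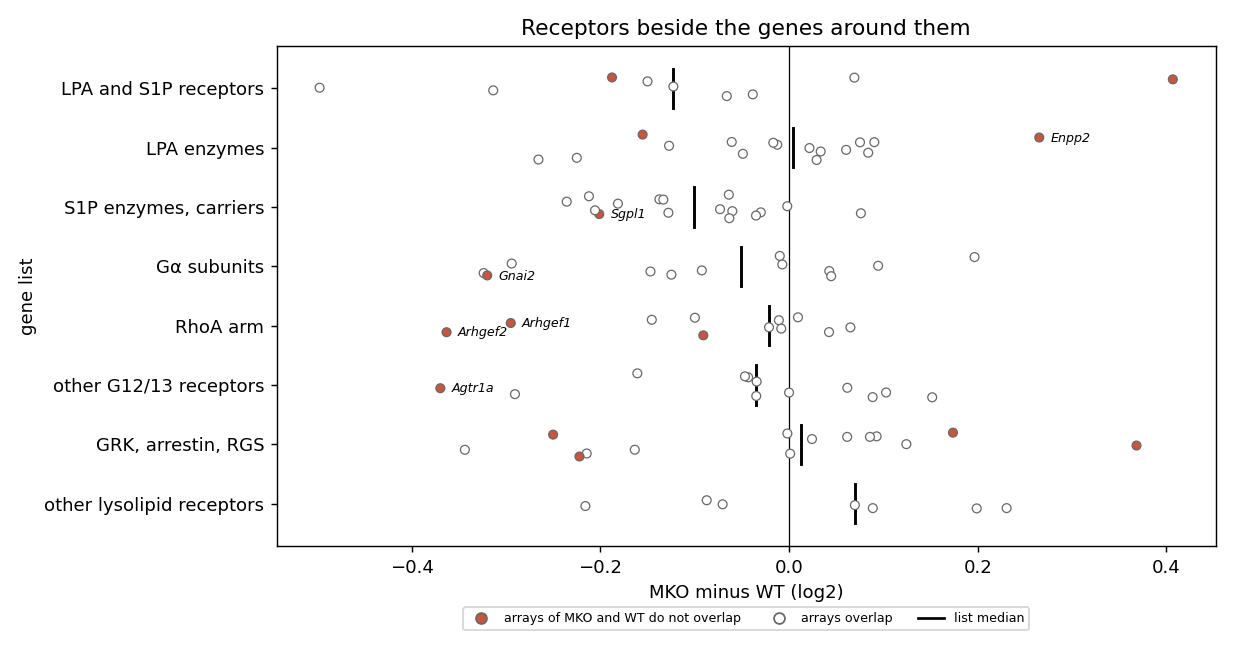
Difference between MKO and WT (log2) of single genes, in rows by list, with the list median as a black bar; red points are genes whose MKO and WT arrays did not overlap. Receptors spread from −0.50 to 0.41, and Enpp2 stands at 0.27 among LPA enzymes, while all but 1 of the S1P enzymes and carriers lie left of 0.

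Remaining marker lists, for cells that soleus can also hold, gave no call. Pax7 and Myf5, transcription factors of satellite cells, differed by 0.24 (SE 0.14) and −0.24 (SE 0.19). Adipoq and Lep, hormones of fat cells, differed by 0.03 (SE 0.26) and −0.15 (SE 0.30). Tnmd and Scx, of tendon cells, differed by −0.37 (SE 0.21) and 0.07 (SE 0.13). The adipocyte median ran from −0.42 without MKO replicate 2 to 0.11 without MKO replicate 3, and the tenocyte median from −0.27 without WT replicate 3 to 0.0029 without WT replicate 1. The globin genes Hba-a1 and Hba-a2 were not matched.

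Genes whose pattern over the 6 arrays was most like that of a receptor were sought among the 13504 genes above the dim reference. For S1pr3 they were Clk2, Mpnd and Rny1, with Pearson correlations of 0.996, 0.99 and 0.989. For S1pr4 they were Tlr5, 2010317E24Rik and Kcp, each at 0.987. For S1pr1 they were A830052D11Rik (0.984), Efna5 (0.982) and Ddx39 (0.978). Lpar1 was most like Osbp2 (0.995), Lims1 (0.994) and Tmem56 (0.99), and Lpar4 most like Fmnl2 (0.995), Efr3b (0.992) and 9630033F20Rik (0.992). S1pr2 was most like Vmac (0.994), Rab24 (0.989) and Socs1 (0.983), and S1pr5 most like Lmx1b (0.994), C77080 (0.993) and Klk4 (0.992). These are the highest of many correlations over 6 arrays that also share their normalization, and they are given as a description.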

How the data were processed

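The authors deposited log2 values made by RMA (background correction, normalization between arrays and summary by probe set) in Affymetrix Expression Console, per the submitters' processing notes, from biotin-labelled total RNA on whole-transcript mouse arrays, per the labels' protocols. No version, genome build or annotation release is given in the sources used here. The design text speaks of gene-level values, but the table held several rows per gene.

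Of 269751 rows, 233753 had exactly 1 symbol in the platform annotation, 5106 had several and 30892 had none. Gene values were means of single-symbol rows. Older symbols were matched through RefSeq (GRCm38.p6): of the pathway entries 89 matched by symbol, 8 by a synonym and 6 not at all, and of the marker entries 82, 1 and 10. Under R 4.3.3, limma 3.58.1 was run on all genes and separately on all rows (lmFit, then eBayes with a variance trend, two-sided, Benjamini-Hochberg, threshold 0.05), and only the genes described are printed. With 3 arrays a group, 0.1 is the smallest two-sided p of an exact permutation test, and precision is limited by the number of arrays. The fits were tested on simulated data. Figures were drawn with matplotlib 3.10.9 in Python 3.11.15.

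Members and gene lists were chosen with earlier results of these data known. Named were all members, listed pathway genes, and listed genes at an unadjusted p under 0.05 whose groups did not overlap; of each marker list, the first 2 genes as listed. The erythroid and platelet, myeloid, Schwann cell, satellite cell, adipocyte and tenocyte lists had medians of −0.16, −0.12, 0.17, −0.05, −0.14 and −0.12. The muscle fibre list had −0.02. No member of these lists was called, and single arrays moved the medians. Of the erythroid and platelet list 4 of 10 genes were measured, no globin among them, and its median was 0.12 with bright probe sets alone. Alternatives were the variance trend, robust moderation, array weights, a block for the replicate number, quantile normalization, median centring, filters on dim genes and probe sets, the median of probe sets, a re-implemented local pooled error test (the test of the design text) and each array left out. Quantile normalization without MKO replicate 1 and the alternatives for pathway genes were added after seeing the data.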

Additional observations from a re-analysis of the deposited data

How the results depend on the processing

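No receptor was called in any alternative, the local pooled error test included, and no receptor probe set in the alternatives run on probe sets (the local pooled error test, the filters, the median of probe sets and the added setting were run on genes only). Over all genes, array weights called 1 gene and the local pooled error test 35, and with an array left out the count ran from 0 to 1 (1 without WT replicate 1 and 1 without WT replicate 3). The median of the receptors was −0.21 with array weights and ran from −0.23 to 0.0100 with an array left out. With an array left out, Lpar2 ran from −0.39 to 0.10, Lpar3 from −0.23 to 0.0478, S1pr1 from −0.0251 to 0.13, S1pr2 from −0.26 to 0.0100 and S1pr5 from −0.18 to 0.0536. Signs turned for Lpar2 without MKO replicate 3 (0.10), Lpar3 without MKO replicate 2 (0.0478), S1pr1 without WT replicate 1 (−0.0251) and MKO replicate 3 (−0.0072), S1pr2 without MKO replicate 2 (0.0100), and S1pr5 after quantile normalization (0.0059), without WT replicate 1 (0.03), MKO replicate 2 (0.0536) and MKO replicate 3 (0.0096). The other receptors, and the 6 pathway genes tried, kept their sign in all 16 alternatives, and the cause of the turned signs was not tested. The variance trend, robust moderation, the replicate block and the filter on dim genes leave every difference as it was. No sign could turn in those alternatives. Lpar2 and Lpar3 have no value among genes above the median level, nor Lpar3 among bright probe sets.

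With the replicate number as a block, 0 receptors, 0 receptor probe sets and 0 genes were called, and the receptor median was −0.12. Same-numbered arrays did not deviate together (correlations of −0.09, 0.09 and −0.24 over genes), so the numbers were not taken as pairs. Before adjustment, genes under 0.05 split into 444 higher and 558 lower, and median centring made this 545 and 354. Lpar2 and Lpar3 are limited by signal near the dim reference, as is S1pr4 in WT. Lpar6 is limited by shared probe sets, and every receptor by 3 arrays a group.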
